A study of Rattus norvegicus with 52 samples.

Results

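The cytochrome P450 3A (Cyp3a) family was followed in livers of F344 rats, an inbred strain, given clofibric acid (CA). CA is a fibrate, a lipid-lowering drug whose receptor in the nucleus is PPARα. It is represented by 8 probe sets of 8799 on the arrays, chosen by the accession inside their names and not by their values. Probe set u46118_at stands for Cyp3a9 and d38381_s_at for Cyp3a18. The other 6, x62086mrna_s_at, d13912_s_at, l24207_i_at, l24207_r_at, x64401cds_s_at and m13646_s_at, stand for Cyp3a1, Cyp3a2 and near relatives. The accession l24207 gave both l24207 probe sets, so these share a target. By the usual naming of such arrays, an "s" in the suffix marks probes shared by similar transcripts, so these 5 probe sets may each read more than 1 of the closely related Cyp3a genes.

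Each of the 52 samples was total RNA from liver sections on 1 array, and rats had received CA at 0, 0.29 or 0.54%, with the untreated animals as controls. From control to the higher dose there were 8, 8 and 6 arrays of entire sections and 8, 7 and 5 of stained sections. Dehydrated sections and sections labelled as LCM reference time had 1 array for every dose. Microdissected liver, cut from sections by laser under a microscope (laser capture microdissection, LCM), had 2 arrays of controls, 1 of the lower dose and 1 of the higher. The labels do not give the rats' sex or age or the route and length of treatment. Whether replicates were separate animals is not stated either, and the spread behind each p-value may be partly technical. Nor do they say which cells were captured, and the files do not pair probe sets with gene symbols, so the liver identity of the sections was not checked against marker genes.

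Enzymes of the Cyp3a family sit in the endoplasmic reticulum, mainly of hepatocytes, and oxidize steroids, bile acids and many drugs. Several members are classic targets of the pregnane X receptor (PXR), which binds their promoters as a dimer with RXR and raises their transcription when steroids or drugs bind it. Rat Cyp3a genes differ in their hormonal control: Cyp3a2 and Cyp3a18 are known as male-predominant in adult liver, Cyp3a9 as female-predominant, and Cyp3a1 as the form strongly induced by dexamethasone and pregnenolone carbonitrile.

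To show the members' control regions, these are the 250 bases before the transcription start of 4 Cyp3a genes, from RefSeq on the rat assembly GRCr8. Capitals mark a direct repeat with a spacer of 3 bases (DR3), the kind of element to which PXR and RXR can bind. Cyp3a9 is at chr12:21960161-21960410 on the minus strand, Cyp3a23-3a1 (the RefSeq symbol that carries the name of Cyp3a1) at chr12:14398804-14399053 on the minus strand, Cyp3a2 at chr12:14343858-14344107 on the minus strand and Cyp3a18 at chr12:13994062-13994311 on the plus strand.
Cyp3a9: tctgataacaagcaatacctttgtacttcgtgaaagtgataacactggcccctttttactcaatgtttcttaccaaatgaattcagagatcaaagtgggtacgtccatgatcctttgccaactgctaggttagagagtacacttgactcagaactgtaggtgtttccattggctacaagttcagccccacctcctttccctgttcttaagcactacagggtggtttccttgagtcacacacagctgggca
Cyp3a23-3a1: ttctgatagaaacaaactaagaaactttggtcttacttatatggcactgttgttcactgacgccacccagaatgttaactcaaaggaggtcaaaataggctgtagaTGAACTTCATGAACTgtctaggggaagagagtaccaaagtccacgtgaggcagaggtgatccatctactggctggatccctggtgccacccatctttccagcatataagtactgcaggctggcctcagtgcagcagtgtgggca
Cyp3a2: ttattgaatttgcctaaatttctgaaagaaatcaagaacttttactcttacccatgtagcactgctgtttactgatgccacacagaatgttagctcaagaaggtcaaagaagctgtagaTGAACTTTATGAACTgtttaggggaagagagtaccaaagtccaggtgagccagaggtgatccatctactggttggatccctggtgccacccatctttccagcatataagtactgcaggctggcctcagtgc
Cyp3a18: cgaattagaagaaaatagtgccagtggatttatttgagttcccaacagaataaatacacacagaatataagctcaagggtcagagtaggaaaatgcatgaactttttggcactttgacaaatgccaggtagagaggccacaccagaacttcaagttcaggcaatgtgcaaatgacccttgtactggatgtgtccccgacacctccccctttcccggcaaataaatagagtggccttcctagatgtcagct

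The search took the half-site AGGTCA with its variants (the first being AGTTCA, another being GGGTCA and the last being GGTTCA) on both strands, as direct repeats spaced by 1, 3 or 4 bases (DR1, DR3 and DR4) or as an everted repeat spaced by 6 (ER6). Cyp3a23-3a1 held 1 DR3, TGAACTTCATGAACT, at 144 to 130 bases before the start, and Cyp3a2 held 1 DR3, TGAACTTTATGAACT, at 131 to 117 bases before it. Cyp3a9 and Cyp3a18 held none of the 4 arrangements in this window. Of 33469 RefSeq promoter windows of this length, 0.0926% held a DR3, 0.194% a DR1, 0.0717% a DR4 and 0.0179% an ER6. The Cyp3a23-3a1 and Cyp3a2 windows were 79.2% identical when aligned, while that of Cyp3a9 was 58.5% identical to Cyp3a23-3a1, 53.4% to Cyp3a2 and 53% to Cyp3a18. A match is a run of letters and not a measured site, these arrays measured no binding, and no relation between these windows and the response to CA was tested.

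Signal differed between preparations in quality. The GAPDH 3'/5' ratio, a measure of transcript integrity that is higher where 5' ends are missing, had these medians: 1.54 over 22 entire arrays, 8.45 over 20 stained ones, 11.8 over 3 dehydrated ones, 4.70 over 3 of LCM reference time and 7.71 over 4 microdissected ones. All 8 Cyp3a probe sets were above the floor, an intensity of 4 to which lower values were raised, on all 22 entire arrays. Outside entire sections 7 of the 8 were above it on every array, and x62086mrna_s_at was above it on 12 of 20 stained arrays.

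Cyp3a9 showed the largest fall of the family in each comparison of CA with control tested. In entire sections the intensity of u46118_at in controls had a lowest value of 198, a median of 322 and a highest of 604 (mean 338 ± 123, SD, n = 8). At 0.29% CA it ran from 13 through a median of 17 to 28 (18.4 ± 4.69, SD, n = 8). At 0.54% CA it ran from 25 through 46.5 to 72 (47.5 ± 22.3, SD, n = 6). No CA array of either dose reached the lowest control, and each dose was compared with the same controls. These are sections of whole tissue, so fewer cells that express a gene and less of its RNA per cell cannot be told apart. On the normalized log2 scale, the level was 17.9-fold lower at 0.29% (log2 -4.16 ± 0.26, SE; limma, adjusted p = 1.05e-10) and 7.67-fold lower at 0.54% (log2 -2.94 ± 0.28, SE; limma, adjusted p = 6.50e-08).

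The fall read less deep at the higher dose in entire sections, at low intensities for both doses. They ran from 13 to 28 at 0.29% and from 25 to 72 at 0.54%, with the floor at 4. Of the 6 arrays at 0.54%, 4 lay above all 8 at 0.29%, while the other 2, at 25 and 27, lay within their range. The 6 values were 30, 68, 27, 63, 72 and 25, so 3 stood between 63 and 72 and 3 between 25 and 30. The level at 0.54% was 2.34-fold that at 0.29% (log2 1.22 ± 0.28, SE; limma, adjusted p = 0.0337). This was the single Cyp3a call in that contrast, in which 1.01% of all 7804 probe sets tested were called (0.474% higher). The call depended on the scale and on single arrays: on the deposited scale the difference was 1.27 with an adjusted p of 0.104, and with a floor of 20 it was 0.79 with an adjusted p of 0.115. Leaving out 1 array ended it in 8 of 14 fits, the omitted array being replicate 1, 2, 3, 4 or 8 of the lower dose or 2, 4 or 5 of the higher, where limma's adjusted p reached 0.108 and the difference ran from 1.06 to 1.25.

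**Figure D1:**
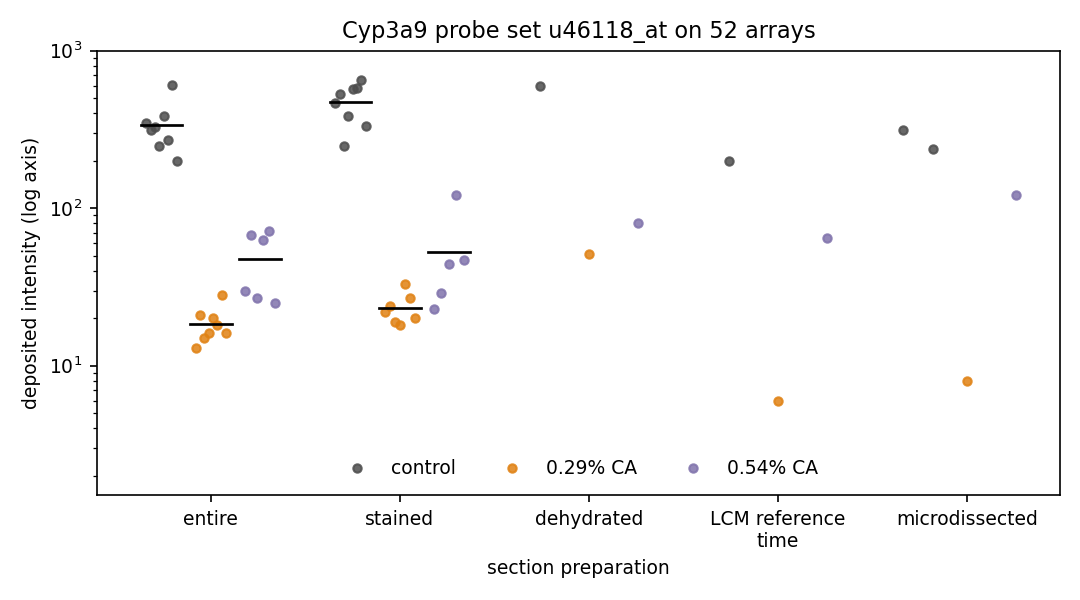
Deposited intensity of the Cyp3a9 probe set u46118_at on a log axis, 1 point per array, by section preparation and dose; black lines are means of groups with at least 5 arrays. Every CA array lies below every control of the same preparation, and in the entire, stained, dehydrated, LCM-reference-time and microdissected samples alike the 0.29% mean or single value lies below that at 0.54%.

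In stained sections Cyp3a9 fell at both doses against their own controls. Control intensities of u46118_at ran from 248 through a median of 498.5 to 654 (472 ± 139, SD, n = 8). At 0.29% CA they ran from 18 through 22 to 33 (23.3 ± 5.28, SD, n = 7), and at 0.54% CA the arrays read 23, 29, 44, 122 and 47 (53.0 ± 39.9, SD, n = 5). The highest CA array, at 122, was still below the lowest control. The level was 19.97-fold lower at 0.29% (log2 -4.32 ± 0.30, SE; limma, adjusted p = 8.02e-09) and 12.2-fold lower at 0.54% (log2 -3.61 ± 0.33, SE; limma, adjusted p = 4.12e-07). Between the doses the difference of 0.71 (95% confidence interval -0.0004 to 1.42) did not pass the test (limma, adjusted p = 0.951). The CA effect in stained minus that in entire sections was -0.15 (95% confidence interval -0.95 to 0.65) at 0.29% and -0.67 (-1.54 to 0.20) at 0.54%, with limma's adjusted p at 1 and 0.613.

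The remaining preparations had 1 array at most doses. In dehydrated sections u46118_at read 601 in the control, 51 at 0.29% and 81 at 0.54%, and in LCM-reference-time sections 199, 6 and 65. In microdissected liver the 2 controls read 312 and 238 and the CA arrays 8 at 0.29% and 121 at 0.54%. All 6 of these CA arrays lay below every control of their own preparation, and in all 3 preparations the lower dose gave the lower value. On the microdissected arrays the 5S rRNA signal was 97 and 285 in controls, 319 at 0.29% and 754 at 0.54%. The LCM-reference-time array at 0.29% had 587. A signal above 200 marked stained arrays as doubtful, and this rule was not applied to these preparations. In a fit that pools the spread of all 15 groups, and so assumes that the lone arrays vary like the others, microdissected CA samples were 10.3-fold lower than microdissected controls over both doses (log2 -3.37 ± 0.54, SE; limma, adjusted p = 1.92e-05).

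Taking the 8 probe sets as a family, falls outnumbered rises. In entire sections at 0.29% CA 5 fell, 0 rose and 3 did not pass, where 11.2% of all 7804 probe sets tested were called (5.69% lower). Those that fell were u46118_at, d13912_s_at, d38381_s_at, l24207_r_at and x64401cds_s_at. At 0.54% CA 3 fell (u46118_at, d13912_s_at and x64401cds_s_at), 1 rose (m13646_s_at) and 4 did not pass, where 15.8% were called (7.74% lower and 8.1% higher). In stained sections 3 fell at 0.29% (the same as in entire sections at 0.54%) and 4 at 0.54%, with l24207_i_at added, and 0 rose. There 3.61% and 6.31% of 7913 probe sets were called (1.78% and 3.18% lower). The median log2 change of the 8 was -0.75 and -0.46 in entire and -0.89 and -1.04 in stained sections at the lower and higher dose, beside medians of all tested probe sets between -0.045 and -0.0075.

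**Figure D2:**
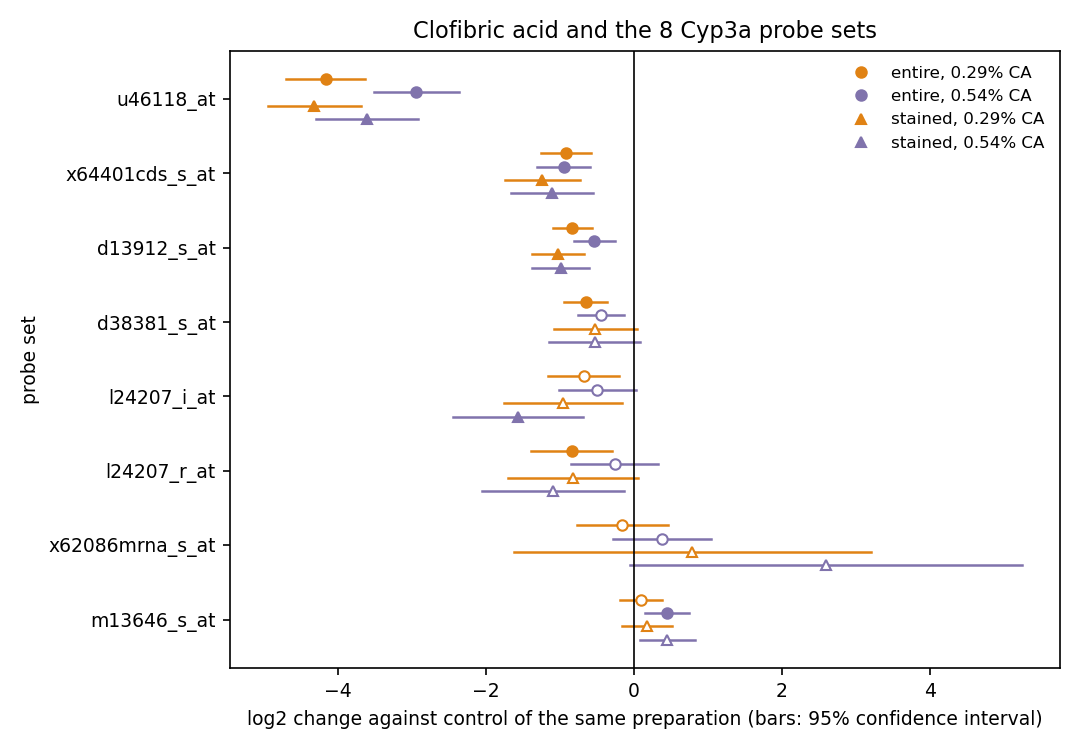
Log2 change against control of the same preparation for the 8 Cyp3a probe sets, with 95% confidence intervals; filled symbols passed limma's test at an adjusted p under 0.05, circles are entire and triangles stained sections. The 4 values of u46118_at lie between -4.32 and -2.94, those of x64401cds_s_at and d13912_s_at between -1.23 and -0.53, and those of m13646_s_at lie above 0.

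Probe set x64401cds_s_at fell by about the same amount at both doses in entire sections. Its control intensities ran from 3375 through 4056.5 to 4712 (3964 ± 440, SD, n = 8), those at 0.29% CA from 1533 through 2194 to 2912 (2253 ± 457, SD, n = 8) and those at 0.54% CA from 1587 through 2033 to 2799 (2087 ± 407, SD, n = 6). No CA array reached the lowest control at either dose. The level was 1.88-fold lower at 0.29% (log2 -0.91 ± 0.16, SE; limma, adjusted p = 0.000405) and 1.93-fold lower at 0.54% (log2 -0.95 ± 0.17, SE; limma, adjusted p = 0.000497). The difference between the doses was -0.03 (95% confidence interval -0.40 to 0.33). In stained sections it was 2.35-fold lower at 0.29% (1424 ± 390, SD, n = 8, to 675 ± 293, SD, n = 7; limma, adjusted p = 0.0032) and 2.16-fold lower at 0.54% (832 ± 457, SD, n = 5; limma, adjusted p = 0.0135). There the groups overlapped: 5 of 7 and 3 of 5 CA arrays lay below all controls. The stained 0.54% call was lost on the deposited scale (log2 -1.09, adjusted p = 0.0959) and without replicate 1 or 2 of that group.

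Probe set d13912_s_at fell in the same samples. Its intensity in entire sections went from 1952 ± 303 in controls (SD, n = 8; 1593 to 2415) to 1150 ± 187 at 0.29% CA (SD, n = 8; 847 to 1351) and 1365 ± 204 at 0.54% CA (SD, n = 6; 1025 to 1593). All 8 arrays at 0.29% and 5 of 6 at 0.54% lay below every control. The level was 1.78-fold lower at 0.29% (log2 -0.83 ± 0.12, SE; limma, adjusted p = 6.09e-05) and 1.44-fold lower at 0.54% (log2 -0.53 ± 0.13, SE; limma, adjusted p = 0.00836), the second call being lost on the deposited scale (log2 -0.51, adjusted p = 0.0627). In stained sections it was 2.03-fold lower at 0.29% and 1.98-fold lower at 0.54% (limma, adjusted p = 0.000567 and 0.00185), with intensities of 2303 ± 671 in controls, 1202 ± 400 at the lower and 1268 ± 219 at the higher dose (SD over 8, 7 and 5 arrays). All 5 stained arrays at 0.54% lay below every stained control, and 6 of 7 did at 0.29%.

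Cyp3a18 fell in entire sections at the lower dose. Probe set d38381_s_at read 1234 ± 189 in entire controls (SD, n = 8; 1013 to 1463), 831 ± 157 at 0.29% CA (SD, n = 8; 679 to 1138) and 970 ± 265 at 0.54% CA (SD, n = 6; 557 to 1341). Below all controls lay 7 of 8 arrays at 0.29% and 4 of 6 at 0.54%. The level was 1.57-fold lower at 0.29% (log2 -0.65 ± 0.14, SE; limma, adjusted p = 0.00263; 0.0574 on the deposited scale). At 0.54% the change was -0.44 with an adjusted p of 0.0511, just outside the threshold. It passed under 5 of 10 other settings, among them the omission of 6 arrays of doubtful quality (log2 -0.52, adjusted p = 0.0065), and in 2 of 14 fits that left out 1 array. In stained sections the changes were -0.52 and -0.53 and neither passed (limma, adjusted p = 0.454 and 0.367).

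Both l24207 probe sets read lower after CA in each comparison of CA with control tested, with wide spread and mostly without passing. In entire sections l24207_r_at went from 315 ± 138 (SD, n = 8) to 181 ± 86.3 at 0.29% (SD, n = 8; log2 -0.84 ± 0.26, SE; limma, adjusted p = 0.0412), a call lost in 10 of the 16 fits that left out 1 array. At 0.54% it read 252.5 ± 53.6 (SD, n = 6; log2 -0.26, adjusted p = 0.622). Its partner l24207_i_at read 654 ± 175, 440 ± 152 and 478 ± 137 (SD, n = 8, 8 and 6), with changes of -0.68 and -0.49 that did not pass (limma, adjusted p = 0.0639 and 0.21). The change at 0.29% passed under 3 of 10 other settings and without replicate 6 of that dose (adjusted p = 0.0214). In stained sections l24207_i_at fell from 1165 ± 450 (SD, n = 8) to 474 ± 198 at 0.54%, where the arrays read 166, 548, 496, 450 and 711 (log2 -1.56 ± 0.42, SE, n = 5; limma, adjusted p = 0.0302). Of these 5 arrays 4 lay below all stained controls. That call was lost without stained control replicate 2 or 5, without replicate 1, 3 or 4 at 0.54%, and once the GAPDH ratio entered the model (log2 -1.26, adjusted p = 0.164). At 0.29% the stained change of l24207_i_at, -0.95, did not pass (limma, adjusted p = 0.254). Stained changes of l24207_r_at, -0.82 and -1.09 at the lower and higher dose, did not pass either (limma, adjusted p = 0.446 and 0.197). In microdissected liver the changes were -1.56 for l24207_i_at and -1.94 for l24207_r_at.

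Probe set m13646_s_at was the single member called higher after CA. In entire sections its controls ran from 1454 through 2399.5 to 2747 (2214 ± 442, SD, n = 8), the arrays at 0.29% CA from 1785 through 2309 to 2651 (2256 ± 271, SD, n = 8) and those at 0.54% CA from 2288 through 2612.5 to 3301 (2677 ± 408, SD, n = 6). The groups overlapped, with 3 of 6 arrays at 0.54% above all controls. At 0.54% it rose 1.37-fold (log2 0.45 ± 0.15, SE; limma, adjusted p = 0.0385), a call lost on the deposited scale (0.29, adjusted p = 0.313), with the GAPDH covariate (0.37, adjusted p = 0.0653) and in 7 of 14 fits that left out 1 array. At 0.29% the change was 0.10 (adjusted p = 0.745). In stained sections the controls read 2253 ± 686, the lower dose 2734 ± 801 and the higher dose 3244 ± 208 (SD over 8, 7 and 5 arrays), and changes of 0.18 and 0.45 did not pass (limma, adjusted p = 0.749 and 0.156).

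Ratios within an array, taken from normalized log2 intensities, set the falling probe sets against m13646_s_at. An array's overall brightness cancels in them, but they depend on the normalization. Both the falling probe sets and m13646_s_at were chosen after their changes on these arrays had been seen, so the ratios are a description with no test. The log2 ratio of u46118_at to m13646_s_at in entire sections went from -2.96 ± 0.61 (SD, n = 8) in controls to -7.22 ± 0.34 at 0.29% (SD, n = 8) and -6.35 ± 0.83 at 0.54% (SD, n = 6). In stained sections the controls had -2.10 ± 0.39, the lower dose -6.60 ± 0.42 and the higher dose -6.17 ± 0.82 (SD over 8, 7 and 5 arrays). Every CA array lay below every control of its preparation. For d13912_s_at the ratio changed by -0.93 and -0.98 in entire and by -1.20 and -1.44 in stained sections. After normalization all 26 CA arrays again lay below their controls. In deposited intensities, entire sections at 0.54% overlapped with controls. There replicate 5 at 0.54% read 1593 beside 2288 for m13646_s_at, and control replicate 8 read 1807 beside 2747. For x64401cds_s_at the normalized ratio changed by -1.01, -1.40, -1.41 and -1.56, with 5 of 8, 5 of 6, 7 of 7 and 5 of 5 CA arrays below all controls.

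**Figure D3:**
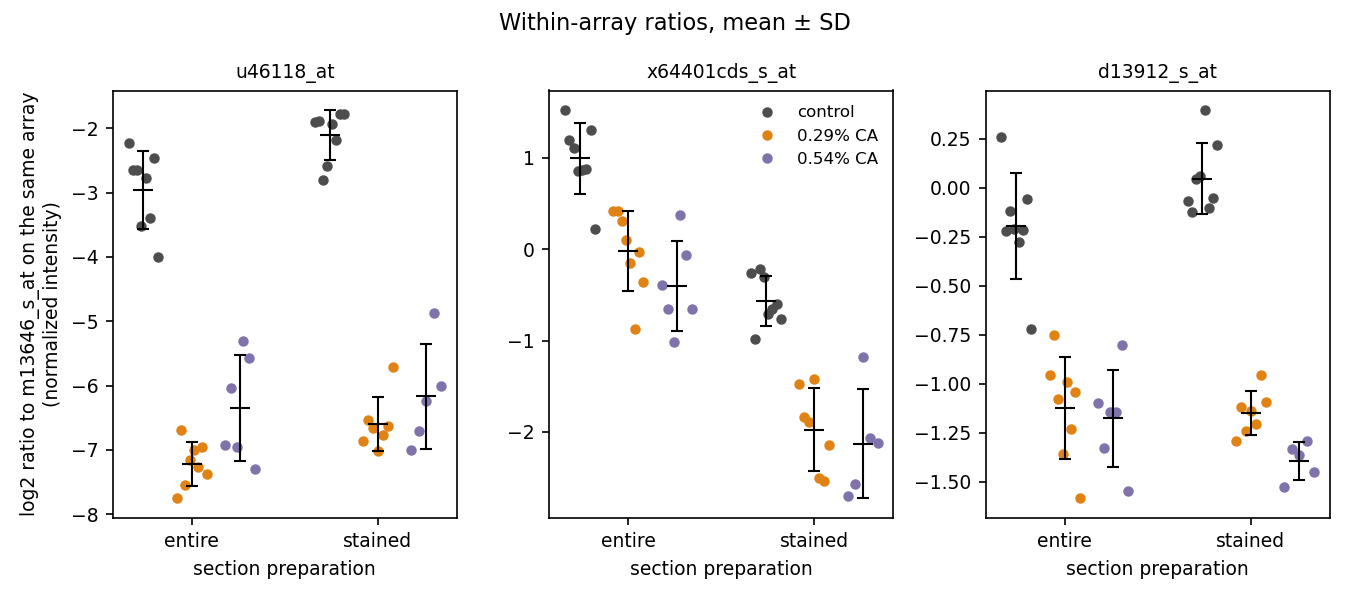
Log2 ratio of 3 falling probe sets to m13646_s_at on the same array, from normalized intensities, 1 point per array with mean ± SD per group, for entire and stained sections at each dose. The u46118_at ratio drops from -2.96 to -7.22 and -6.35 in entire sections. On this normalized scale the d13912_s_at ratio has no overlap between control and CA arrays of a preparation.

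Probe set x62086mrna_s_at did not change with CA in a way that passed the test, and among the 8 it differed most between stained and entire controls. In entire sections it read 2872 ± 313 in controls (SD, n = 8; 2413 to 3284), 2994 ± 1314 at 0.29% CA (SD, n = 8; 608 to 4341) and 3402 ± 630 at 0.54% CA (SD, n = 6; 2607 to 4046). Its changes of -0.16 (95% confidence interval -0.77 to 0.46) and 0.38 (-0.28 to 1.05) did not pass (limma, adjusted p = 0.834 and 0.494). The log2 ratio of u46118_at to x62086mrna_s_at, from normalized intensities, changed by -4.01 and -3.32 in entire sections, with every CA array below every control. These changes largely repeat the fall of u46118_at given above (log2 -4.16 and -2.94), so the ratio is a description with no test. A lack of overlap in u46118_at alone does not fix that of the ratio. In stained sections x62086mrna_s_at lay at the floor on 8 of 20 arrays, so no size of this ratio is given there, and 4 of 7 and 4 of 5 CA arrays lay below all stained controls.

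After staining the x62086mrna_s_at signal was nearly gone. Stained controls ran from -109 through -6 to 143 (13.8 ± 84.1, SD, n = 8), and 3 of 8 were above the floor. Stained CA arrays ran from -84 to 264 at 0.29% (52.9 ± 112, SD, n = 7) and read 144, 80, 384, 7 and 152 at 0.54% (153 ± 141, SD, n = 5). At every dose, all stained arrays lay below all entire arrays. In controls the fitted difference was -7.64 ± 0.83 (SE; limma, adjusted p = 6.17e-09), and its size depended on the floor, with a value of -6.19 at a floor of 20. The dehydrated arrays read 40, -29 and 7 from control to the higher dose, the LCM-reference-time arrays -88, 251 and 143, and the microdissected arrays 23 and 26 in controls, 31 at 0.29% and 403 at 0.54%. None of these 10 arrays reached the lowest entire array, at 608.

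Probe set x64401cds_s_at was also lower after staining. Stained controls, at 1424 ± 390 (SD, n = 8; 718 to 1914), lay below all entire controls, at 3964 ± 440, and the difference was -1.45 ± 0.20 (SE; limma, adjusted p = 4.91e-07). Stained and entire arrays did not overlap at either CA dose. Single arrays read 1731, 724 and 489 in dehydrated and 468, 539 and 471 in LCM-reference-time sections, while microdissected liver read 1134 and 465 in controls, 187 at 0.29% and 797 at 0.54%. With the GAPDH ratio as a covariate the differences between stained and entire controls were -4.61 for x62086mrna_s_at and -1.41 for x64401cds_s_at, and both still passed (limma, adjusted p = 0.00511 and 0.00286). That ratio differed between the preparations, with medians of 1.54 in entire and 8.45 in stained arrays. Staining and transcript integrity therefore cannot be told apart by this fit.

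**Figure D4:**
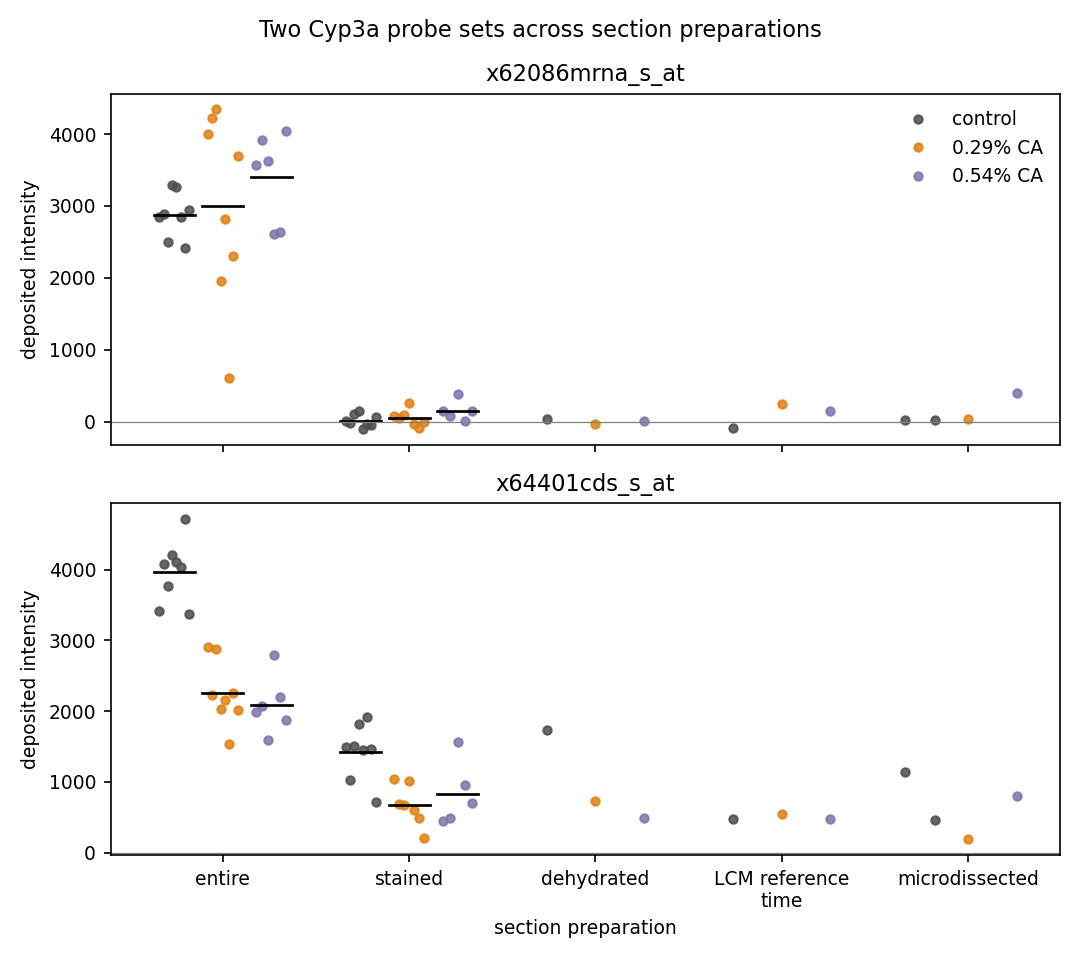
Deposited intensity of x62086mrna_s_at (top) and x64401cds_s_at (bottom) on linear axes, 1 point per array, by preparation and dose; black lines are means of groups with at least 5 arrays. All stained arrays lie below all entire arrays of their dose for both probe sets, and the CA arrays of x64401cds_s_at lie lower within entire sections.

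In the opposite direction, Cyp3a9 and both l24207 probe sets read higher in stained than in entire controls. Of the 8 members 3 rose and 2 fell, where 30.2% of 8191 probe sets were called (16.4% higher and 13.8% lower). The differences were 0.96 ± 0.27 for u46118_at, 1.07 ± 0.31 for l24207_i_at and 0.90 ± 0.34 for l24207_r_at (SE, n = 8 and 8; limma, adjusted p = 0.00667, 0.00745 and 0.0422). The controls overlapped, with 1, 6 and 2 of the 8 stained arrays above all entire ones. With the GAPDH ratio as a covariate these became -0.026, 0.44 and 0.13 and no longer passed (limma, adjusted p = 0.984, 0.716 and 0.946). The estimate for Cyp3a9 was then too small to give a direction. As the GAPDH ratio itself differed between the preparations, such a fit cannot tell staining and transcript integrity apart. The call of l24207_r_at was also lost without the 6 doubtful arrays (0.81, adjusted p = 0.0835) and in 10 of the 16 fits that left out 1 control array. Over all probe sets the median difference was 0.09 here and 0.42 on the deposited scale, and on that scale u46118_at differed by 1.02, x64401cds_s_at by -0.997, d13912_s_at by 0.73 and m13646_s_at by 0.53, all 4 called.

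The CA effect on the family did not differ between stained and entire sections in a way that passed the test. The interaction called 0 of the 8 at either dose, where limma called 0.0855% and 0.134% of 8191 probe sets, 391 and 801 at an unadjusted p under 0.05. Among members, d13912_s_at (-0.46, 95% confidence interval -0.89 to -0.02) and l24207_i_at (-1.07, -2.06 to -0.09) had intervals at 0.54% that left out 0, but adjusted p-values of 0.491 and 0.471. In stained sections the doses differed in 0 of the 8, where 0.0632% of 7913 were called and 374 had an unadjusted p under 0.05.

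In microdissected liver 2 of the 8 fell after CA and 0 rose, where 12.9% of 8318 probe sets were called (7.08% lower). They were u46118_at, given above, and d13912_s_at, which read 2835 and 1116 in controls, 374 at 0.29% and 1035 at 0.54% (log2 -1.35 ± 0.27, SE; limma, adjusted p = 0.000487). With array weights d13912_s_at no longer passed (adjusted p = 0.0702). On single arrays it read 2007, 1755 and 1035 in dehydrated and 890, 517 and 776 in LCM-reference-time sections, lower in all 4 CA arrays than in the control. Probe set m13646_s_at read 2051 and 1116 in microdissected controls, 978 at 0.29% and 3664 at 0.54%, while dehydrated sections gave 2537, 3864 and 2721 and LCM-reference-time sections 667, 1228 and 2463. Between microdissected and stained controls 0 of the 8 differed, where limma called 5.59% of 8318 and 1353 had an unadjusted p under 0.05.

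Across the 15 group means, the probe sets with the pattern most like Cyp3a9 among 3299 candidates were j04171_at (Pearson r = 0.90) and rc_ai105448_at (r = 0.88). In entire sections j04171_at read 727 in controls, 255 at 0.29% CA and 327 at 0.54%, and rc_ai105448_at read 2109, 648 and 674. For x62086mrna_s_at they were m14776_f_at (r = 0.96) and s83279_at (r = 0.93), with 2230 and 820 in entire controls and 447 and 372 in stained controls. Candidates had to be above the floor on every entire and stained control array, a rule that x62086mrna_s_at itself did not meet. Probe sets whose signal was lost after staining were therefore not considered, and some stained signal in its neighbours was required in advance. These correlations describe group means that share normalization, doses and preparations, and they carry no p.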

How the data were processed

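Total RNA from 52 rat liver section samples was measured on single-colour oligonucleotide arrays. The authors deposited whole-number linear intensities, 1 for each probe set on each array. Scanner software, scaling and presence calls were not given in sources used here. Between 20.6% and 30.1% of an array's intensities lay below 0. The number of arrays limits the precision.

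Intensities below the 10th percentile of the positive ones, 4, were raised to it and taken to log2. The 8740 non-control probe sets were quantile normalized over 52 arrays (59 control probe sets were left out). Groups came from the labels. Comparisons used limma 3.58.1 (R 4.3.3) with lmFit, eBayes and a two-sided test, and a probe set was called at a Benjamini-Hochberg adjusted p under 0.05 over every probe set with a value above the floor in the fit. The groups of a preparation were fitted together, stained and entire sections were set against each other in a fit of 6 groups, and microdissected samples were fitted with all 15. The within-array ratio of u46118_at to x62086mrna_s_at was computed under Python 3.11.15 and is given as a description. Plain intensities are as deposited. Promoter windows were aligned with Biopython 1.88, and plots used matplotlib 3.10.9. The procedure was tested on simulated data. Tried as alternatives were median centring of the deposited scale, normalizing before flooring, a floor of 20, the 75th percentile (66) as a filter, another set of groups, array weights, the replicate block, a trended variance prior, a GAPDH 3'/5' covariate, and omitting each array in turn or 6 of doubtful quality (3 entire arrays whose GAPDH ratio exceeded 4 and 3 stained ones whose 5S rRNA signal exceeded 200).

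The members and lists were chosen with earlier results of these data known. All 8 members are named. Likeness was the Pearson correlation over group means, and up to 2 neighbours are named. None of the accessions in the probe set names matched the gene table used here (0 matched), so lists of PXR targets, other P450s and cell type markers, set up by gene symbol, could not be used.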

Additional observations from a re-analysis of the deposited data

Results flagged for a closer look

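Among 48 groups of Cyp3a values with 4 to 10 arrays, 2 held an array far from the others, and chance alone would mark about 1 group in 20. In entire sections at 0.29% CA, replicate 6 read 608 for x62086mrna_s_at while the other 7 arrays ran from 1956 to 4341. That array had a GAPDH 3'/5' ratio of 2.65, the highest of its group except for replicate 7, which had 5.07 and read 2308. The mean intensity of replicate 6 over all probe sets, 163.4, was the lowest of the 22 entire arrays. Replicate 6 also read lowest of its group for x64401cds_s_at (1533) and highest for l24207_i_at (704) and l24207_r_at (330). Whether transcript integrity lay behind its values was not tested. In entire controls, replicate 7 read 4712 for x64401cds_s_at, above a highest value of 4214 among the other 7. This control array had a GAPDH 3'/5' ratio of 6.25 and was among the 3 entire arrays of doubtful quality. It was also the highest entire control for u46118_at (604) and d13912_s_at (2415). Without the first array the change of x62086mrna_s_at at 0.29% CA was 0.17 in place of -0.16, and it passed the test in neither fit. Without the second, x64401cds_s_at changed by -0.82 and -0.86 at the lower and higher dose and both calls held.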

How the results depend on the processing

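The falls of u46118_at kept their direction and passed the test under every alternative run: its change ran from -4.26 to -3.68 (entire, 0.29%), -3.11 to -2.79 (entire, 0.54%), -4.47 to -4.12 (stained, 0.29%) and -3.96 to -3.26 (stained, 0.54%). On the deposited scale 3 members (of 5) were called at 0.29% and 2 (of 4) at 0.54% in entire sections, and the dose difference of u46118_at there was 1.27 with 0 members called. A floor of 20 gave 0.79 and 0 members. Leaving out 1 array gave 1.06 to 1.38 for that difference and 0 to 1 members, and 2 to 4 members in stained sections at 0.54% (2 without replicate 1 of that group). In that stained comparison 362 to 531 of all probe sets were then called (499 in the main fit). The GAPDH covariate brought u46118_at in stained against entire controls to -0.026 and left 2 members called of 5. Array weights left 1 of 2 in microdissected liver. The cause of these shifts was not tested. Arrays with the same number deviated together (r above 0.1) in 10 of 20 entire and 9 of 17 stained pairs. Those pairs cross doses, so none can share a rat. Between entire and stained arrays of a dose 14 of 20 pairs deviated together, with a median r of 0.13. Different numbers gave 46 of 140, 40 of 114 and 47 of 130, the last with a median of -0.02. Whether same-number arrays of a dose share an animal is not stated. The main fits paired no arrays and took all as independent. With the replicate block u46118_at changed by -4.16 and -2.89 in entire and -4.32 and -3.47 in stained sections, the members called were 5, 4, 3 and 4, and 6 differed between stained and entire controls, where d13912_s_at passed too. A block shared by entire and stained arrays of a dose, added after seeing the data, also gave 6 there and 0 for both interactions, with u46118_at at 0.96, -0.16 and -0.82.

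Counts over all probe sets moved by over 1.5 times in these cases. With another set of groups they were 539 (of 877) and 790 (of 1236) in entire sections, 41 (of 79) between the doses, 546 (of 286) and 964 (of 499) in stained sections and 18 (of 5) between the stained doses. Array weights gave 1933 in entire sections at 0.54%, 331 between the entire doses, 19 between the stained doses, and 15 (of 7) and 22 (of 11) for the interactions. For the entire doses the deposited scale gave 34, a floor of 20 gave 132, the block 211 and single left-out arrays 33 to 118. The GAPDH covariate gave 301 in stained sections at 0.54%, 2 between the stained doses, 400 (of 2475) for stained against entire controls and 6 for the 0.54% interaction. The deposited scale gave 3798 for those controls, and the 75th percentile filter 1333 there and 0 for both interactions. Between the stained doses other settings gave 1 to 10, and for the interactions a floor of 20 gave 16 and 30, the 6 arrays left out 17 and 22, and the block 11 at 0.29%. Single left-out arrays gave 11 for the 0.29% interaction (entire control replicate 7 or stained control replicate 4 or 8) or 13 (entire 0.29% replicate 7), and for the 0.54% interaction 20 (entire control replicate 7 or stained control replicate 4) or 7 (stained 0.54% replicate 1). In microdissected liver against its controls the deposited scale gave 312, the filter 416, array weights 335 and leaving out control replicate 2 gave 698 (of 1069). Against stained controls the values were 161, 20 and 120, a floor of 20 gave 298, and leaving out control replicate 1 or 2 gave 902 or 103 (of 465). Not run were x62086mrna_s_at in stained sections under the filter, where it was not tested, and leaving out the lone microdissected CA arrays, which would empty a group. Low signal limits u46118_at after CA, and signal at or near the floor limits x62086mrna_s_at after staining.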
